A study of Mus musculus with 10 samples.

Results

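De novo lipogenesis makes fatty acids from carbohydrate carbon, and triglyceride synthesis packs them for storage. The mRNA levels of 30 genes of these pathways were measured in inguinal subcutaneous white adipose tissue of mice after irradiation of the hindlimb. The 30 genes were chosen by name, as enzymes, carriers and regulators of the pathway, out of 24421 gene symbols counted in each library. All 30 were found in the counts and all 30 passed the filter on low counts. They are described in 4 groups by role, with 10 genes of acetyl-CoA and NADPH supply, 9 of fatty acid synthesis, elongation and desaturation, 6 of triglyceride assembly and 5 regulators.

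The mice were wild-type C57BL/6J animals, whose age and sex the labels do not give. The 4 FLASH libraries came from mice given 33.3 Gy of electrons to the left hindlimb by FLASH radiotherapy, which delivers the dose at an ultra-high dose rate. The 3 CONV libraries came from mice given 33.3 Gy of electrons to the same limb by the same accelerator in its conventional mode. The 3 sham libraries came from unirradiated mice, and fat was taken from the left hindlimb in every group at 70 days. The fat of the irradiated mice therefore came from the treated limb, and no library shows the response of another depot or time. All 10 libraries carry the same batch number. The labels number the replicates without saying that each is a separate animal, so p-values measure the spread between these libraries, which may in part be technical.

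Gene counts per library ran from 22.4 M to 36.0 M, with a median of 31.2 M. The files assigned 52.0% to 69.6% of all their entries to no gene. The labelled tissue was checked by its markers. The 18 adipocyte markers together had between 51272 and 69748 CPM (counts scaled to 1 M per library) in FLASH replicates 1, 2 and 4, 52397 and 51399 CPM in CONV replicates 1 and 3, and between 46946 and 58249 CPM in sham libraries, with Car3 the most abundant of them. FLASH replicate 3 had 11221 CPM and CONV replicate 2 had 8037 CPM of the same markers. These 2 libraries also held 2323 and 2816 CPM of 9 B cell markers, against 3.11 to 4.70 CPM in the other FLASH libraries, 9.93 and 5.15 CPM in the other CONV libraries and 1.89 to 4.95 CPM in sham libraries. T cell markers summed to 902 and 615 CPM in them and to between 8.12 and 16.7 CPM elsewhere. Results are therefore given with all 10 libraries and with the 8 libraries that remain without this lymphocyte-rich pair.

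Citrate that leaves the mitochondrion is cleaved in the cytosol to acetyl-CoA, which acetyl-CoA carboxylase turns into malonyl-CoA and fatty acid synthase joins into palmitate. NADPH for these steps comes from malic enzyme and the pentose phosphate pathway. Elongases and desaturases then lengthen and unsaturate the chain, and acyltransferases attach it stepwise to glycerol 3-phosphate. The transcription factors SREBP-1 and ChREBP raise many of these mRNAs when insulin and glucose are plentiful. In mice, white fat is one of the main sites of the pathway, and the pathway is also active in brown and beige fat.

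Most of the 30 genes had the same highest library, and most had the same lowest, though no correlation between genes was computed. With all 10 libraries or with 8, none of the 30 passed the adjusted threshold between FLASH, CONV and sham groups. CONV replicate 3 was the highest of the 10 libraries for 25 of the 30 genes, whereas it was highest for 16.5% of all genes tested. FLASH replicate 3 was the lowest for 22 of 30, against 13.6% of all genes. CONV replicate 2 was the lowest for 7 of 30, near its 26.6% of all genes. For 27 of the 30 genes these 2 libraries were both below the other 8, a count not set against all genes. Among the sham libraries, replicate 1 was the highest for 30 of 30 genes, against 38.3% of all genes. The 30 genes took 7.24%, 8.16%, 2.26% and 8.46% of all gene counts in FLASH replicates 1 to 4, 7.07%, 1.20% and 14.7% in CONV replicates 1 to 3, and 10.9%, 7.05% and 5.24% in sham replicates 1 to 3. The share was thus lowest in the lymphocyte-rich pair and highest in CONV replicate 3. Most of it belonged to Scd1, which alone took between 0.647% and 8.50%. In bulk RNA, fewer adipocytes and less RNA per adipocyte cannot be told apart, which bears first on the low values of the lymphocyte-rich pair.

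**Figure D1:**
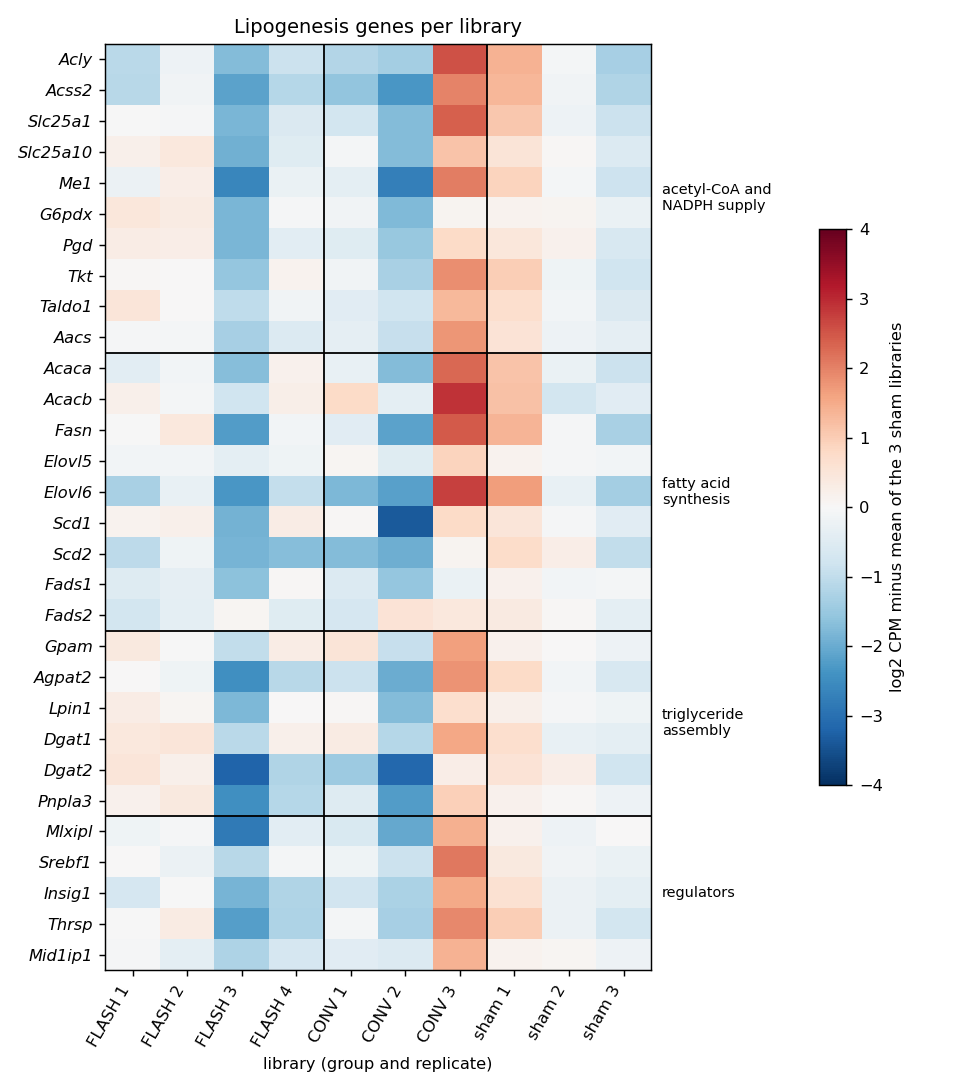
Each cell of the plot is the log2 CPM of 1 gene (rows, grouped by role) in 1 library (columns, FLASH, CONV and sham), minus the mean of the 3 sham libraries, with red higher and blue lower. CONV replicate 3 is red for most genes, sham replicate 1 is the reddest of the sham columns, and FLASH replicate 3 and CONV replicate 2 are blue for all but a few genes such as Fads2.

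Acetyl-CoA and NADPH supply came first in the pathway. CPM values below are given in the order of the replicate numbers and are scaled for library composition by the trimmed mean of M-values (TMM). Acly, the ATP citrate lyase that releases cytosolic acetyl-CoA, had 335, 627, 215 and 392 CPM in FLASH libraries, 317, 280.4 and 4194 CPM in CONV libraries and 1894, 673 and 287 CPM in sham libraries. CONV replicate 3 held the top value, sham replicate 1 came next, and the remaining 8 libraries of the 3 groups overlapped below it. Me1, the cytosolic malic enzyme, had 609, 868, 117 and 595 CPM in FLASH libraries, 544, 108 and 2975 CPM in CONV libraries and 1338, 676 and 405 CPM in sham libraries. The same 2 libraries were highest and the lymphocyte-rich pair lowest. Aacs, the acetoacetyl-CoA synthetase that feeds ketone carbon into lipid, had 142, 138, 58.6 and 99.9 CPM in FLASH libraries, 115, 77.7 and 502 CPM in CONV libraries and 215, 126 and 115 CPM in sham libraries. CONV replicate 1 lay just below the lowest sham library and only CONV replicate 3 stood above the sham range.

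The other supply genes, apart from G6pdx, were also highest in CONV replicate 3. Acss2, which activates acetate, ranged from 39.7 to 159 CPM in FLASH libraries, from 34.8 to 692 CPM in CONV libraries and from 76.0 to 440.4 CPM in sham libraries. Slc25a1, the mitochondrial citrate carrier, ranged from 66.5 to 230.3 CPM in FLASH libraries, from 71.4 to 1231 CPM in CONV libraries and from 129 to 497 CPM in sham libraries. Slc25a10, the dicarboxylate carrier, reached 311 CPM in FLASH libraries, 519 CPM in CONV libraries and 335 CPM in sham libraries. Of the pentose phosphate genes, Tkt (transketolase) reached 624, 2064 and 1112 CPM in FLASH, CONV and sham libraries, Taldo1 (transaldolase) 237, 413 and 272 CPM, and Pgd (6-phosphogluconate dehydrogenase) 336, 463 and 378 CPM. G6pdx, the glucose-6-phosphate dehydrogenase that opens that pathway, was an exception. Its highest value was 289.7 CPM in FLASH replicate 1, with 230.1 CPM at most in CONV libraries and 237 CPM at most in sham libraries. Acss2, Me1 and G6pdx overlap genes on the opposite strand, and without a stated strand setting reads of those neighbours cannot be told apart from theirs.

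Fatty acid synthesis genes held the most abundant mRNAs of the pathway. Per kilobase of merged exons, Scd1 averaged 12042 ± 3950 CPM per kb in sham libraries (SD, n = 3) and Fasn 844 ± 719 CPM per kb. Dgat2 followed at 399 ± 166 and Pnpla3 at 364 ± 46.5 CPM per kb, and the spread of Fasn covered both. Fads2 was lowest at 3.97 ± 1.02 CPM per kb, below Mid1ip1 at 15.3 ± 1.85 CPM per kb.

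Fasn, the fatty acid synthase, had 6924, 9474, 1504 and 6596 CPM in FLASH libraries, 5211, 1607 and 38427 CPM in CONV libraries and 18041, 6793 and 2889 CPM in sham libraries. The sham libraries alone differed 6.24-fold. Acaca, the carboxylase isoform that serves synthesis, had 1034, 1271, 424 and 1572 CPM in FLASH libraries, 1138, 415 and 6873 CPM in CONV libraries and 3042, 1153 and 756 CPM in sham libraries. FLASH replicates 1, 2 and 4 and CONV replicate 1 all lay inside the sham range for both genes. Acacb, the mitochondria-bound isoform whose malonyl-CoA restrains fatty acid oxidation, had 242, 202, 123 and 249 CPM in FLASH libraries, 364, 161 and 1559 CPM in CONV libraries and 473, 129 and 157 CPM in sham libraries. Here CONV replicate 2 was inside the sham range, at variance with its low values for most other genes.

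Elovl6, the elongase that takes palmitate to stearate, had 59.6, 121, 29.1 and 76.2 CPM in FLASH libraries, 42.7, 32.6 and 979 CPM in CONV libraries and 471, 119 and 56.9 CPM in sham libraries. It had the widest spread of all 30 genes, 22.9-fold between CONV replicates 3 and 1 and 8.27-fold between the highest and lowest sham libraries. Elovl5, an elongase of polyunsaturated chains, had 109.9, 109, 89.8 and 106 CPM in FLASH libraries, 125, 84.2 and 218 CPM in CONV libraries and 129.5, 115 and 111 CPM in sham libraries. Its 4 FLASH values all lay under the lowest sham value, and its sham libraries differed 1.17-fold. Scd1, the main stearoyl-CoA desaturase of white fat, had 62714, 65559, 15227 and 69644 CPM in FLASH libraries, 58988, 5532 and 97225 CPM in CONV libraries and 79814, 55223 and 41694 CPM in sham libraries. Outside the lymphocyte-rich pair its libraries spread far less than those of Fasn or Acly.

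Scd2, a close paralog of Scd1 with which it may share reads, had 429, 786, 247 and 271 CPM in FLASH libraries, 265, 232 and 951 CPM in CONV libraries and 1488, 1061 and 447 CPM in sham libraries. Its highest value was in sham replicate 1, and CONV replicate 3 stayed within the sham range. The pair lie near each other on chromosome 19, Scd2 at chr19:44293674-44306864 on the plus strand and Scd1 at chr19:44394455-44407879 on the minus strand (GRCm38, GENCODE M21). The desaturases of polyunsaturated fatty acids also departed from the common order, and their values are given for that reason, chosen after they were seen. Fads1 had 92.4, 104, 42.8 and 137 CPM in FLASH libraries, 90.9, 45.0 and 109.6 CPM in CONV libraries and 151, 123 and 126 CPM in sham libraries. All 3 CONV values lay below the lowest sham value. Fads1 (chr19:10182888-10196877, plus strand) and Fads2 (chr19:10062765-10101746, minus strand) are also neighbours. Fads2 had 7.69, 9.77, 13.6 and 9.08 CPM in FLASH libraries, 8.07, 18.7 and 17.0 CPM in CONV libraries and 16.3, 13.2 and 9.65 CPM in sham libraries. It was highest in CONV replicate 2 and within the sham range in FLASH replicate 3, so it was not low in the lymphocyte-rich pair.

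Triglyceride assembly genes followed. Gpam, the mitochondrial acyltransferase of the first step, had 244, 182, 92.9 and 225 CPM in FLASH libraries, 263, 97.0 and 579.6 CPM in CONV libraries and 208, 187 and 161 CPM in sham libraries. CONV replicates 1 and 3 and FLASH replicates 1 and 4 were above the highest sham library. Agpat2, which adds the next acyl chain and is lost in a form of inherited lipodystrophy, had 255, 224, 46.3 and 117 CPM in FLASH libraries, 138, 63.4 and 868 CPM in CONV libraries and 427, 233 and 161 CPM in sham libraries. Its exons overlap Egfl7 on the opposite strand. Lpin1, the lipin phosphatase that yields diacylglycerol, ranged from 112 to 474 CPM in FLASH libraries, from 115 to 619 CPM in CONV libraries and from 342 to 449 CPM in sham libraries.

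The last step is shared by a pair of unrelated acyltransferases. Dgat1 had 124, 129.5, 43.8 and 108 CPM in FLASH libraries, 117, 42.6 and 270.4 CPM in CONV libraries and 149.7, 75.7 and 71.1 CPM in sham libraries. Dgat2 had 1599.6, 1308, 124 and 494 CPM in FLASH libraries, 414, 130.5 and 1367 CPM in CONV libraries and 1659, 1364 and 663 CPM in sham libraries. Dgat1 was highest in CONV replicate 3, Dgat2 in sham replicate 1, and FLASH replicate 4 and CONV replicate 1 lay below the sham range for Dgat2 only. Pnpla3, a lipid droplet protein that lipogenic signals induce, had 632, 736, 101 and 253 CPM in FLASH libraries, 396, 119 and 1076 CPM in CONV libraries and 628, 576 and 486 CPM in sham libraries. FLASH replicates 1 and 2 were just above the sham range and FLASH replicate 4 was below it.

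Regulators of the pathway were read in the same libraries. Srebf1, which encodes SREBP-1, had 256, 215, 118 and 237 CPM in FLASH libraries, 224, 139 and 1076 CPM in CONV libraries and 334, 231 and 208 CPM in sham libraries. Outside CONV replicate 3 and the lymphocyte-rich pair, its 7 values ran from 208 to 334 CPM with the groups mixed. Mlxipl, which encodes ChREBP, had 145, 159, 22.9 and 123 CPM in FLASH libraries, 106, 39.5 and 438 CPM in CONV libraries and 185, 141 and 167 CPM in sham libraries. Insig1, which holds the SREBP escort in the endoplasmic reticulum and is itself an SREBP target, had 148, 237, 65.7 and 102 CPM in FLASH libraries, 141, 97.9 and 681 CPM in CONV libraries and 365, 201 and 182 CPM in sham libraries. FLASH replicates 1 and 4 and CONV replicate 1 lay below the sham range for Insig1. Thrsp, the thyroid hormone responsive Spot 14 protein, had 376, 483, 83.6 and 163 CPM in FLASH libraries, 364, 153 and 1457 CPM in CONV libraries and 758, 324 and 229.9 CPM in sham libraries. Mid1ip1, its homolog that aids polymerisation of acetyl-CoA carboxylase, had 31.3, 24.8, 13.7 and 20.2 CPM in FLASH libraries, 23.7, 22.1 and 85.3 CPM in CONV libraries and 35.5, 34.1 and 28.1 CPM in sham libraries. For all 5 regulators CONV replicate 3 had the highest value of the 10 libraries and FLASH replicate 3 the lowest. Srebf1 overlaps Rai1 on the opposite strand.

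**Figure D2:**
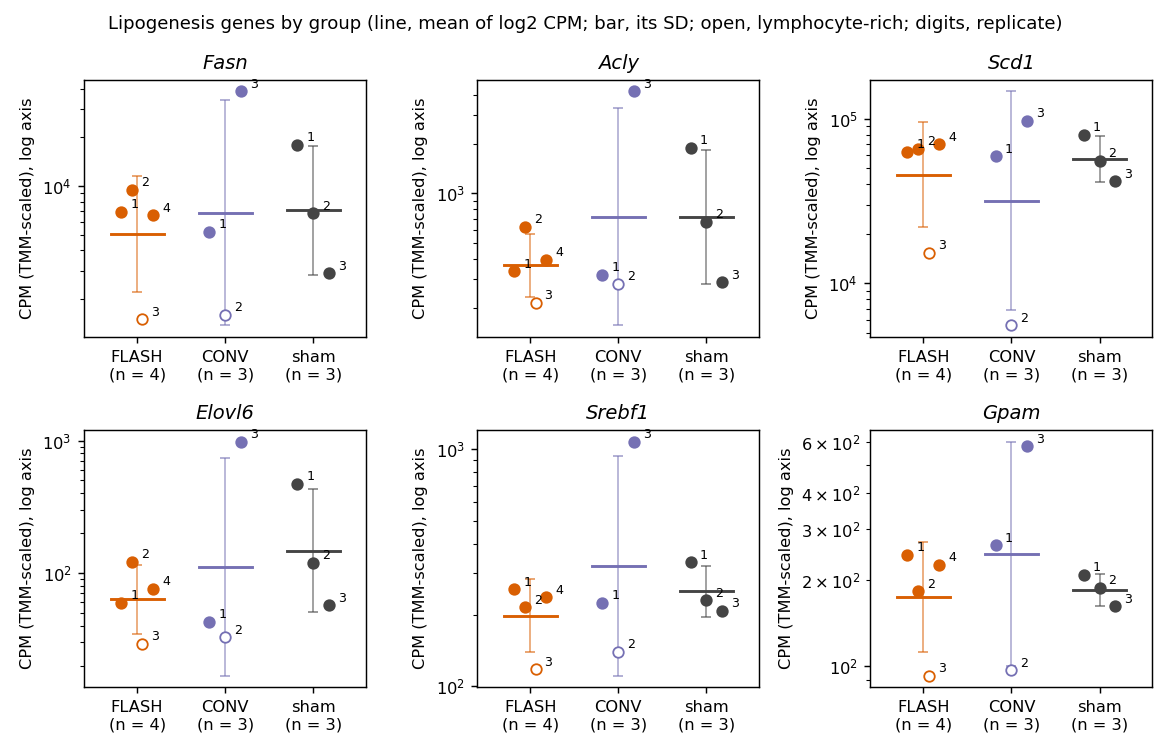
CPM on a log axis of 6 of the genes in each library, by group (FLASH, CONV, sham), with the replicate number beside each point, the line at the mean of log2 CPM, the bar at its SD and open points for the lymphocyte-rich pair. CONV replicate 3 is the top point in all 6 panels, and for Fasn, Acly and Elovl6 sham replicate 1 lies above every FLASH library.

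The spread between libraries of the same group was wide for most of the 30 genes. With 8 libraries the pooled SD within groups had a median of 0.76 on the log2 CPM scale over the 30 genes and of 0.26 over all genes tested, and 27 of the 30 were above the median of all genes. It was largest for Elovl6 (1.76), Acly (1.49), Acss2 (1.43) and Fasn (1.25), and smallest for Fads1 (0.23), G6pdx (0.23), Lpin1 (0.26) and Elovl5 (0.27). With all 10 libraries the medians were 1.08 for the 30 genes and 0.49 for all genes. The spread was not confined to irradiated tissue. The highest sham library exceeded the lowest at least 2-fold for 18 of the 30 genes. This held for 8 of 30 in FLASH libraries without replicate 3 and for 25 of 30 between CONV replicates 3 and 1. These ranges cover 3, 3 and 2 libraries, and the same shares over all genes were not computed.

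**Figure D3:**
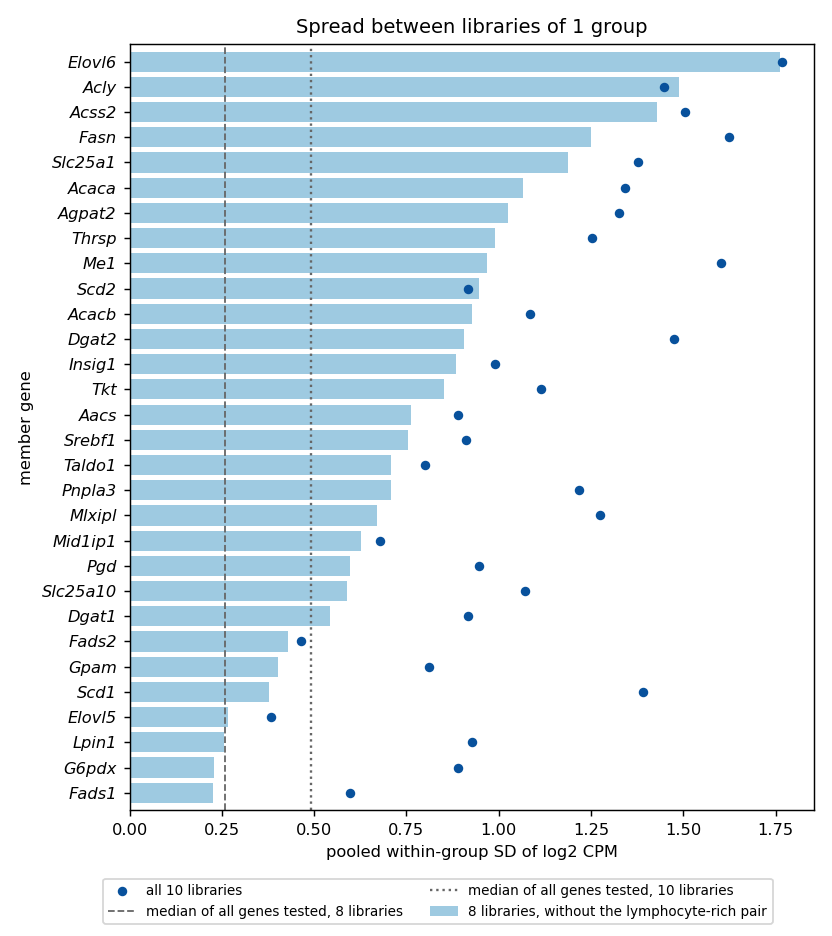
Pooled SD within groups of log2 CPM for each gene, as bars without the lymphocyte-rich pair and points with all 10 libraries, with the median of all genes tested as a dashed line (8 libraries) and a dotted line (10 libraries). Elovl6, Acly and Acss2 top the bars, and only Lpin1, G6pdx and Fads1 fall under the dashed line.

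Promoters are shown for genes at both ends of that range, since most genes were highest in the same library but varied to very different extents. RefSeq promoter windows on GRCm38.p6, of up to 250 bases before the gene start, matched 25 of the 30 genes. Of the genes with a single window of at least 200 bases, the 4 with the widest spread are Elovl6 (chr3:129532136-129532354, plus strand), Acly (chr11:100528001-100528250, minus strand), Fasn (chr11:120824548-120824797, minus strand) and Slc25a1 (chr16:17928220-17928469, minus strand). The narrowest are Elovl5 (chr9:77917115-77917363, plus strand) and Lpin1 (chr12:16610967-16611216, minus strand). Each is written 5′ to 3′ on the gene's strand and ends just before the outermost annotated start, with matches on either strand in capitals for the CCAAT box (CCAAT), the GC box (GGGCGG), the E-box (CACGTG) and a sterol element (TCACNCCAC).
Elovl6: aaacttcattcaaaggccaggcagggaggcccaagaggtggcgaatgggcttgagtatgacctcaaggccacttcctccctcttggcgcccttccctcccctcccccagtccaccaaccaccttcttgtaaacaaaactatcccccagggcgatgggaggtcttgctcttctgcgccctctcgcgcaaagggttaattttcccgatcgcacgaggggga
Acly: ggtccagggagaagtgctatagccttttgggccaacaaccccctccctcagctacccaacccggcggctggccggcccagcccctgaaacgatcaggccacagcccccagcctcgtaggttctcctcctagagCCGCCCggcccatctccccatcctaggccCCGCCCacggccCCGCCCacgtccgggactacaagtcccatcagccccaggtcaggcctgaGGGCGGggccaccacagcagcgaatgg
Fasn: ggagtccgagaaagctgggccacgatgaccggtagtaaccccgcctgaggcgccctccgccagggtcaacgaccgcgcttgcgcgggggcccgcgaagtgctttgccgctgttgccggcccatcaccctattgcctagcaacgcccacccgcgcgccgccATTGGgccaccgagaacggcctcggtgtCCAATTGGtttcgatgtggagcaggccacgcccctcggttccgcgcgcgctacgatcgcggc
Slc25a1: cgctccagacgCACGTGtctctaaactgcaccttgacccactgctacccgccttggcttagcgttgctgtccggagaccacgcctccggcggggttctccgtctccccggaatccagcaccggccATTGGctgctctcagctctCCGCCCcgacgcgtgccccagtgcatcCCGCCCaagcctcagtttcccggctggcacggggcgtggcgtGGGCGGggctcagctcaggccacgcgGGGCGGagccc
Elovl5: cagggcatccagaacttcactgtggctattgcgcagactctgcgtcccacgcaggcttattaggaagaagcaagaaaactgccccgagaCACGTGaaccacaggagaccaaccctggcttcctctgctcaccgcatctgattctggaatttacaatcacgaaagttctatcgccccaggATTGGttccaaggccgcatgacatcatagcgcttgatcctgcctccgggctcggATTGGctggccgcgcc
Lpin1: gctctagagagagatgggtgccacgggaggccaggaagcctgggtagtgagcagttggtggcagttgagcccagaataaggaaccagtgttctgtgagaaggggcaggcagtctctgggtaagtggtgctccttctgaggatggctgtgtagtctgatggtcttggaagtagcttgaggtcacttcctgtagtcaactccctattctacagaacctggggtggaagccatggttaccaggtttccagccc
Acly held 4 GC boxes, the nearest starting 27 bases before the gene. Fasn held 3 CCAAT boxes, of which a pair share bases. Slc25a1 held an E-box, a CCAAT box and 4 GC boxes, and Elovl5 an E-box and 2 CCAAT boxes. Elovl6 and Lpin1, from opposite ends of the range, held none of the 4 motifs in these windows. Over the 31 windows of the 25 genes, CCAAT was present in 48.4%, GGGCGG in 54.8%, CACGTG in 12.9% and TCACNCCAC in 3.23%, the last in Mlxipl alone. Over all 32851 promoters in the table the shares were 33.8%, 32.7%, 6.02% and 1.05%. A match of letters is not a bound site.

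Adipocyte content and the lipogenic level were compared as list means, each the mean log2 CPM over a list minus the mean of the sham libraries. The 30 genes lay at -0.13, 0.02, -1.72 and -0.45 in FLASH replicates 1 to 4, at -0.47, -1.55 and 1.45 in CONV replicates 1 to 3, and at 0.67, -0.09 and -0.58 in sham replicates 1 to 3. The 18 adipocyte markers lay at 0.36, 0.09, -2.20 and -0.07 in FLASH libraries, at -0.16, -2.62 and 0.16 in CONV libraries, and at 0.24, -0.11 and -0.13 in sham libraries. In the lymphocyte-rich pair both lists were low together, whereas in CONV replicate 3 the adipocyte markers were near the sham mean and the lipogenic genes were not. Relative to the adipocyte markers, 26 of the 30 genes in CONV replicate 3 were above the highest sham library, as were 25.6% of all genes. In the lymphocyte-rich pair the same measure was above the highest sham library for 15 of 30 in FLASH replicate 3 and 23 of 30 in CONV replicate 2. The shares of all genes there were larger, 91.1% and 92%, so those counts do not mark the lipogenic genes as raised.

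By list mean, thermogenic markers were highest in the same libraries as the lipogenic genes. The 10 brown and beige markers lay at -0.65, -0.73, -1.70 and -0.75 in FLASH libraries, at -0.37, -1.76 and 2.39 in CONV libraries, and at 0.77, -0.41 and -0.37 in sham libraries. Their sums ran from 69.2 to 187 CPM in FLASH libraries, from 52.3 to 705 CPM in CONV libraries and from 181 to 325 CPM in sham libraries. By sum, CONV replicate 1 at 334 CPM came above sham replicate 1 at 325 CPM, unlike by list mean. Ucp1, the uncoupling protein of thermogenic fat, had 0, 0.0366, 0.116 and 0.124 CPM in FLASH libraries, 0, 0.134 and 20.6 CPM in CONV libraries, and 3.95, 0.0651 and 0.0336 CPM in sham libraries. It stood out in CONV replicate 3 and sham replicate 1, the same libraries in which the lipogenic genes were highest. Elsewhere it was at 0.134 CPM or less, and at 0 in FLASH replicate 1 and CONV replicate 1, where 3 counts correspond to 0.0833 to 0.134 CPM across libraries. The 10 sebocyte markers, some of which are also thermogenic, summed to 309 to 895 CPM in FLASH libraries, 269 to 1217 CPM in CONV libraries and 684 to 886 CPM in sham libraries, with CONV replicate 3 highest. Keratinocyte and hair markers summed to 172 CPM in FLASH replicate 4 and to 1.54 CPM or less in the other FLASH libraries, against 2.18 to 13.9 CPM in CONV libraries and 1.94 to 3.48 CPM in sham libraries. Mammary markers summed to 12.5 CPM or less, with Wap and Elf5 at 0 in every library. Skeletal muscle markers summed to 5.87 to 393 CPM in FLASH libraries, 1.95 to 2514 CPM in CONV libraries and 12.8 to 762 CPM in sham libraries. They were highest in CONV replicate 1 and lowest in CONV replicate 3. Macrophage markers were also highest in CONV replicate 1, and summed to 829.9 to 1332 CPM in FLASH libraries, 939 to 2476 CPM in CONV libraries and 857 to 1058 CPM in sham libraries. Fibroblast and progenitor markers were lowest in the libraries FLASH replicate 3, CONV replicate 2 and CONV replicate 3, with list means of -1.80, -1.50 and -1.22 relative to sham. The part of thermogenic fat, skin, muscle, macrophages or stroma in the lipogenic values was not tested.

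**Figure D4:**
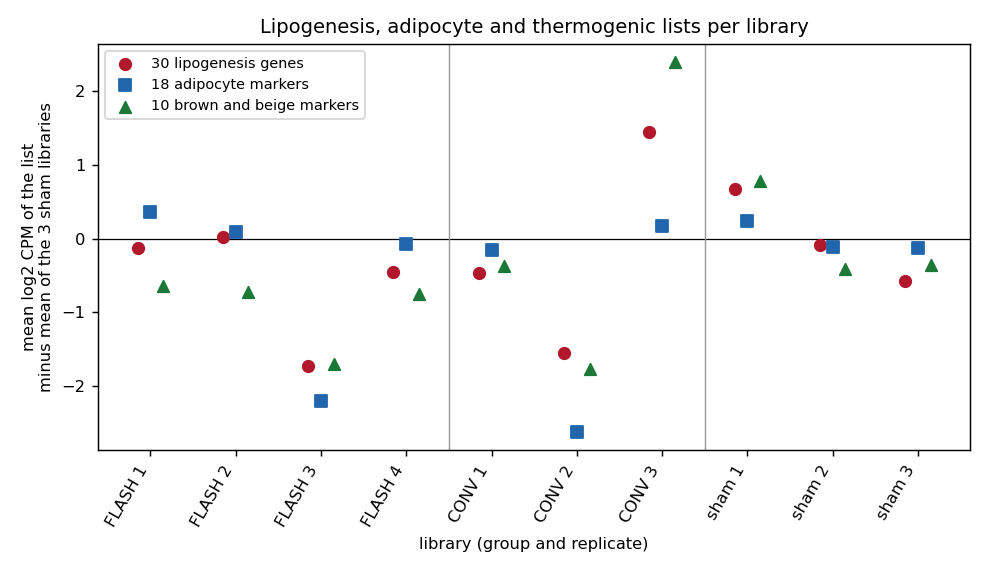
Mean log2 CPM of 3 gene lists in each library (FLASH, CONV and sham, left to right) minus the mean of the 3 sham libraries. The lipogenic genes (circles) and brown and beige markers (triangles) peak together in CONV replicate 3 and sham replicate 1, while adipocyte markers (squares) are at 0.16 and 0.24 there and at -2.20 in FLASH replicate 3 and -2.62 in CONV replicate 2.

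FLASH libraries showed no difference from sham libraries in the 30 genes that passed the adjusted threshold of 0.05 in edgeR's quasi-likelihood test. With all 10 libraries 28 of 30 log2 fold changes were below 0, against 45.9% of all genes, with a median of -0.48 over the 30 genes and 0.03 over all genes. They ran from -1.59 for Elovl6 (SE 1.18) to 0.04 for Dgat1 (SE 0.60), and Gpam was the other value above 0. Without the lymphocyte-rich pair 23 of 30 were below 0, against 51.5% of all genes, with a median of -0.22 over the 30 genes and -0.01 over all genes. Elovl6 was again lowest at -1.34 (SE 1.11) and Dgat1 highest at 0.28 (SE 0.36). No gene of the 30 reached an unadjusted p of 0.05 in either fit, where 0.648% and 2.52% of all genes did, and 0% passed after adjustment in both.

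Elovl5 was the single gene of the 30 whose FLASH and sham values did not overlap, lower in FLASH, a property of 2.45% of all genes with 10 libraries and of 4.99% with 8. Its log2 fold change was -0.19 ± 0.28 (SE, edgeR unadjusted p = 0.514) with 10 libraries and -0.14 ± 0.19 (edgeR unadjusted p = 0.487) with 8. For 15 of the 30 genes, among them Fasn, Acly, Acaca, Scd1 and Srebf1, FLASH replicates 1, 2 and 4 all lay within the sham range. The median depended on sham replicate 1, which was above every FLASH library for 26 of the 30 genes. That count and the 15 within the sham range were not set against all genes. Without sham replicate 1 the median was -0.07 with FLASH replicate 3 and CONV replicate 2 kept and 0.19 without them.

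CONV libraries also showed no difference from sham libraries that passed the adjusted threshold in the 30 genes, and the sign of most fold changes depended on CONV replicate 3. With all 10 libraries 22 of 30 log2 fold changes were above 0, against 56.9% of all genes, with a median of 0.34 over the 30 genes and 0.08 over all genes in edgeR, whereas limma voom gave 15 above and 15 below 0 and a median of -0.06 over the 30 genes. They ran from -1.05 for Scd2 (SE 0.70) to 1.46 for Acacb (SE 0.81). No gene of the 30 reached an unadjusted p of 0.05 in edgeR, where 5.82% of all genes did, and 0% of all genes passed after adjustment. Without CONV replicate 3 the median was -0.93 and 28 of 30 fold changes were below 0, the sign of 20 genes being the opposite of that with all libraries.

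Without the lymphocyte-rich pair, where CONV replicates 1 and 3 remain, 25 of 30 CONV fold changes were above 0, against 51.3% of all genes, and the median was 0.72, against 0.01 over all genes. Gpam, Acacb, Srebf1, Elovl5 and Dgat1 reached an unadjusted p of 0.05, all higher in CONV, which 7.02% of all genes did in that direction and 6.24% in the other. Their log2 fold changes were 1.16 ± 0.30 for Gpam (SE, edgeR unadjusted p = 0.00465), 1.91 ± 0.67 for Acacb (unadjusted p = 0.0221), 1.31 ± 0.53 for Srebf1 (unadjusted p = 0.0375), 0.51 ± 0.21 for Elovl5 (unadjusted p = 0.0404) and 0.95 ± 0.40 for Dgat1 (unadjusted p = 0.0454). None passed adjustment over the 15252 genes tested, the lowest adjusted p in edgeR being 0.165 for Gpam, and 0.0393% of all genes passed. Gpam was the 1 gene with both CONV values above all sham values, as were 11.9% of all genes, and Fads1 the 1 gene with both below, as were 14.2%. With all 10 libraries Fads1 alone did not overlap, lower in CONV, as did 9.11% of all genes. Its log2 fold change was -0.70 ± 0.43 (SE, edgeR unadjusted p = 0.135) with 10 libraries and -0.43 ± 0.19 (edgeR unadjusted p = 0.0586) with 8. CONV replicate 1 was above the sham range for Gpam alone and below it for 12 of the 30 genes, whereas CONV replicate 3 was above it for 26. The shares of all genes outside the sham range were not computed. Without the pair and without CONV replicate 3, the median was -0.55. Without the pair and without CONV replicate 1, when CONV replicate 3 stands alone and is assumed to vary as the other groups do, 7 genes passed the adjusted threshold, namely Aacs, Acacb, Elovl5, Gpam, Mlxipl, Srebf1 and Mid1ip1, as did 7.22% of all genes.

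**Figure D5:**
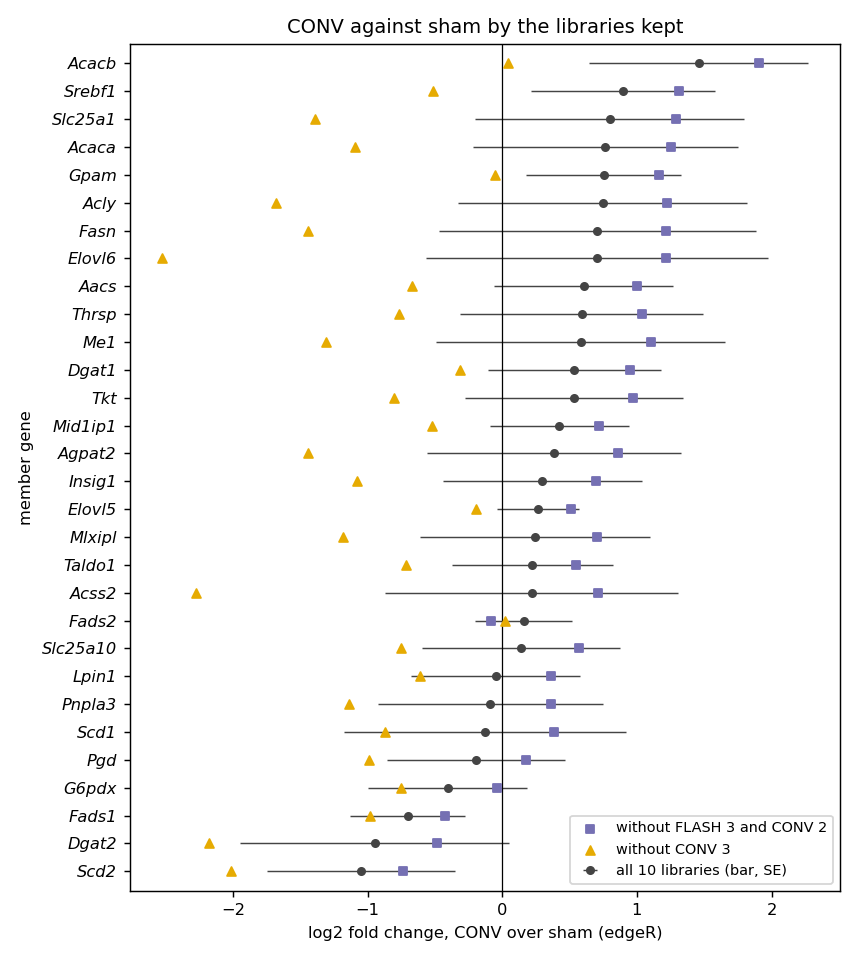
Log2 fold change of CONV over sham in edgeR for each gene, with all 10 libraries (circles, bars are SE), without FLASH replicate 3 and CONV replicate 2 (squares) and without CONV replicate 3 (triangles). Leaving out CONV replicate 3 moves nearly every gene to the left, and 28 of 30 triangles lie below 0, where 22 of 30 circles lie above it (15 of 30 in limma voom).

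FLASH and CONV libraries were then compared directly. With all 10 libraries 27 of 30 log2 fold changes of FLASH over CONV were below 0, against 55.8% of all genes, with a median of -0.86 over the 30 genes and -0.04 over all genes. They ran from -2.30 for Elovl6 (SE 1.20) to 0.47 for Dgat2 (SE 0.93), with G6pdx and Fads1 also above 0. Acacb was lower in FLASH at -1.77 ± 0.75 (SE, edgeR unadjusted p = 0.0422) and was the 1 gene of the 30 under 0.05, as were 1.53% of all genes in that direction. None passed adjustment in edgeR (adjusted p = 0.999 for Acacb), nor did any other gene (0%). No gene of the 30 separated FLASH from CONV libraries without overlap, which 2.25% of all genes did.

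Without the lymphocyte-rich pair 27 of 30 FLASH over CONV fold changes were below 0, against 53.1% of all genes, with a median of -1.01 over the 30 genes and -0.02 over all genes. Aacs, Acacb, Elovl5, Gpam, Srebf1 and Mid1ip1 had an unadjusted p under 0.05 and were lower in FLASH, 6 of the 30 genes, as were 6.90% of all genes, while 6.75% were higher. The log2 fold changes were -0.94 ± 0.30 for Gpam (SE, edgeR unadjusted p = 0.0134), -0.65 ± 0.21 for Elovl5 (unadjusted p = 0.0146), -2.04 ± 0.67 for Acacb (unadjusted p = 0.0163), -1.45 ± 0.53 for Srebf1 (unadjusted p = 0.0254), -1.08 ± 0.44 for Mid1ip1 (unadjusted p = 0.0408) and -1.27 ± 0.53 for Aacs (unadjusted p = 0.0450). None passed adjustment, the lowest adjusted p in edgeR being 0.236 for Gpam, and 0.0131% of all genes did. Acacb, Elovl5 and Gpam had all 3 FLASH values below both CONV values, as did 12.3% of all genes. Acacb had 242, 202 and 249 CPM in FLASH replicates 1, 2 and 4, against 364 and 1559 CPM in CONV replicates 1 and 3. The direction over the 30 genes again rested on CONV replicate 3. Without it the median was 0.48 with the lymphocyte-rich pair kept and 0.25 without the pair, and 26 of 30 fold changes were above 0 in each case. Of the 6 genes, Acacb was below 0 in both, at -0.36 and -0.66, as was Elovl5, at -0.0032 and -0.20, while Mid1ip1 was below 0 only with the pair kept and Gpam only without it. Without the pair and without CONV replicate 1, 7 of the 30 genes passed the adjusted threshold in edgeR, as did 6.52% of all genes. The FLASH and CONV comparisons with sham share the sham libraries, and both comparisons that involve CONV share CONV replicate 3.

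Neighbouring pathways were read from 6 gene lists, and none of their genes passed the adjusted threshold in any of the 3 comparisons, with 10 libraries or with 8. Unadjusted values for the genes named are those without the lymphocyte-rich pair. Cholesterol synthesis is the other branch that SREBPs control. Its list mean lay at -0.27, -0.17, -1.03 and -0.64 in FLASH libraries, at -0.78, -0.72 and 0.44 in CONV libraries, and at 0.15, 0.11 and -0.25 in sham libraries. Hmgcs1, the cytosolic HMG-CoA synthase, had 608, 534, 83.4 and 209 CPM in FLASH libraries, 210.3, 72.2 and 247 CPM in CONV libraries and 425, 614 and 483 CPM in sham libraries, so that every CONV value, replicate 3 included, was below every sham value. Its log2 fold change in CONV over sham was -1.17 ± 0.41 (SE, edgeR unadjusted p = 0.0223). The median of the 20 cholesterol genes was 0.05 in CONV over sham, against 0.01 over all genes. In FLASH over sham it was -0.37, against -0.01 over all genes. There 18 of 20 were below 0, against 51.5% of all genes, and none had an edgeR unadjusted p under 0.05.

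In CONV over sham without the pair, 7.02% of all genes were under 0.05 and higher and 6.24% under 0.05 and lower, so the 1 or 2 genes of a list given next are values of single genes and not a result about their list. Fatty acid uptake and activation had 2 of 13 genes under 0.05, both higher, Slc27a1 at 1.28 ± 0.27 (SE, edgeR unadjusted p = 0.00149) and Acsl5 at 0.42 ± 0.12 (unadjusted p = 0.00783). Slc27a1, a fatty acid transporter, was also higher in FLASH than in sham at 0.78 ± 0.25 (edgeR unadjusted p = 0.0132). It had 661, 570.4, 147 and 694 CPM in FLASH libraries, 695, 161 and 1132 CPM in CONV libraries and 468, 275 and 373 CPM in sham libraries, the lymphocyte-rich pair being the exception in each irradiated group. Of 21 genes of insulin and glucose input, Pdk4, the kinase that shuts pyruvate dehydrogenase, and Gpi1, a glycolytic isomerase, were under 0.05, both higher in CONV than in sham. Pdk4 had 99.4, 119, 36.2 and 89.7 CPM in FLASH libraries, 249.97, 18.7 and 324 CPM in CONV libraries and 136, 66.7 and 122 CPM in sham libraries. Its log2 fold change was 1.39 ± 0.28 in CONV over sham (SE, edgeR unadjusted p = 0.00127), and CONV replicates 1 and 3 were both above the sham range, unlike for most lipogenic genes. Pdk4 is also the most abundant gene of the brown and beige list, and CONV replicate 1 held 2514 CPM of skeletal muscle markers. The part of either tissue in the values of this paragraph was not tested. Of 9 genes of malonyl-CoA use and fatty acid oxidation, 4 were under 0.05 and higher in CONV than in sham, against the 7.02% of all genes, among them Prkaa2, a catalytic subunit of AMP-activated kinase, at 0.34 ± 0.11 (edgeR unadjusted p = 0.0177) and Cpt1b, a carnitine palmitoyltransferase, at 1.88 ± 0.76 (unadjusted p = 0.0394). Prkaa2 was also lower in FLASH than in sham at -0.25 ± 0.10 (SE, edgeR unadjusted p = 0.0413) and lower in FLASH than in CONV at -0.58 ± 0.11 (unadjusted p = 0.000851), neither of which passed adjustment. Lpin2 (0.32 ± 0.14, edgeR unadjusted p = 0.0488) was the 1 of 11 other triglyceride genes under 0.05, and Nr1h3, which encodes LXR alpha, the 1 of 15 genes of SREBP and LXR control (0.42 ± 0.17, unadjusted p = 0.0374), both higher in CONV than in sham.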

How the data were processed

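Total RNA went through ribosomal depletion and a stranded library kit in all 10 libraries, per the labels' protocols. The authors deposited 1 count table per library, with an unnormalized whole-number count for each gene symbol. The submitters' processing notes name kallisto 0.5.0 and mm10, while the tables close with the entries that htseq-count writes for unassigned reads. Which aligner, annotation and strand setting were used is not given in the sources used. Those closing entries, 52.0% to 69.6% of each file, were left out of library sizes and tests. Every 3 counts correspond to 0.0833 to 0.134 CPM. Gene positions are from GENCODE M21, which held 95.7% of the symbols, and promoters from RefSeq.

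Counts were filtered with filterByExpr, scaled by TMM and tested in edgeR 4.0.16 (R 4.3.3) with a robust quasi-likelihood fit over all 10 libraries, without covariates, and p-values were adjusted by Benjamini-Hochberg over all 15266 genes tested (15252 with 8 libraries). A threshold of 0.05 was used. Log2 CPM used a prior count of 2. Alternatives were DESeq2 1.42.0, voom in limma 3.58.1, other scaling and filters, a replicate block and leaving out each library. Of the correlations between deviations of same-numbered replicates, 2 of 9 were over 0.1 (from -0.756 to 0.261). The lymphocyte-rich pair, which carry different numbers, correlated at 0.898. These values therefore cannot decide whether same-numbered replicates were paired. No 2 libraries of a group were duplicates, with a chi-square per degree of freedom of 41.9 or more.

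Values in every library are given for regulators, for core enzymes and for genes with an unadjusted p under 0.05 in any comparison, and fold changes for the last. In neighbouring lists, up to 3 genes of smallest p per comparison may be named, and some of these are not reported here. The 30 genes, the lists and the pair left out were chosen with earlier results of these data known.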

Additional observations from a re-analysis of the deposited data

Results flagged for a closer look

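FLASH replicate 3 lay far from the other 3 FLASH libraries in 6 of 37 tested items. Chance marks about 1 in 20 independent items, but these share libraries and genes, so the count cannot be read against that share. The items were the 30 genes and 7 list means, and the measure is the gap to the nearest other library as a share of the range of the group, set against Dixon's 95% critical value for 4 libraries. The share was 0.931 for Scd1, 0.924 for Tkt, 0.866 for Mlxipl, 0.865 for Lpin1 and 0.83 for Dgat1, and FLASH replicate 3 was the lowest library for each. It was 0.831 for the mean of the adipocyte markers, again with FLASH replicate 3 lowest. This is 1 of the lymphocyte-rich pair, with 2323 CPM of B cell markers, against 3.11 to 4.70 CPM in the other FLASH libraries. The CONV and sham groups, of 3 libraries each, were not tested.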

How the results depend on the processing

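The number of the 30 lipogenic genes past the adjusted threshold was 0 in all 3 comparisons under every scaling, filter, test and library set run, with 1 exception. Without the lymphocyte-rich pair and without CONV replicate 1 it was 7 in CONV against sham, where 7.22% of all genes passed, and 7 in FLASH against CONV, where 6.52% did. Leaving out 1 library from all 10 moved the median log2 fold change of the 30 genes between -0.93 and 0.76 in CONV against sham. It moved between -1.275 and 0.48 in FLASH against CONV and between -0.61 and -0.07 in FLASH against sham. Leaving out the lymphocyte-rich pair and 1 more library gave -0.55 to 1.42, -1.67 to 0.25 and -0.43 to 0.19, in the same order of comparisons. The same sets gave 0 to 1134 genes of all tested in CONV against sham, 0 to 1025 in FLASH against CONV and 0 in FLASH against sham. For CONV against sham both kinds of set together gave -0.19 to 0.85 for Elovl5, -0.052 to 1.62 for Gpam, -0.32 to 1.42 for Dgat1 and -0.51 to 2.04 for Srebf1. For FLASH against CONV they gave -1.97 to 0.20 for Aacs, -1.40 to 0.053 for Gpam, -2.17 to 0.19 for Srebf1 and -1.73 to 0.11 for Mid1ip1. For these genes, values of opposite sign came from the sets without CONV replicate 3. DESeq2 called 66 genes in CONV against sham and 40 in FLASH against CONV, none of them among the 30, where edgeR called 0 with 889 and 453 genes under an unadjusted p of 0.05, and without the lymphocyte-rich pair edgeR called 6 and 2; the cause was not tested. With a replicate block, the median was -0.38 for FLASH and 0.19 for CONV, each against sham, and -0.71 for FLASH against CONV, and no gene of the 30 was called. All 30 genes were well above 3 counts in every library, and how far the unassigned entries or the number of libraries limit precision was not compared.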
